A study of Mus musculus with 3 samples.

Results

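The 9 genes Tmem119, P2ry12, Sall1, Siglech, Gpr34, Sparc, Olfml3, Bhlhe41 and Fcrls are enriched in microglia, the resident macrophages of the central nervous system (CNS). They were taken as a list by name, with earlier results of these data known. Counts of these genes set beside shares over all genes are therefore a description. All 9 were found among the 22238 genes listed in all 3 libraries. Their levels are described in bone marrow monocytes (BM-Mono), spinal cord monocytes (SC-Mono) and spinal cord monocyte-derived antigen-presenting cells (SC-APC).

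The 3 populations came from mice with experimental autoimmune encephalomyelitis (EAE), a model of multiple sclerosis in which T cells against a myelin protein draw monocytes into the spinal cord. All mice were wild-type females on the C57BL/6J background, 10 to 12 weeks old. Each had received myelin oligodendrocyte glycoprotein peptide in complete Freund's adjuvant, with 250 ng of pertussis toxin at 2 and 24 h, and cells were sorted on days 14 to 15. No untreated mice and no sorted microglia were sequenced. Sorting took viable CD45-high cells of the spinal cord that were CD11b+ CD64+ Ly6G-, as Ly6C-high cells for SC-Mono and as Ly6C-low or negative cells for SC-APC. BM-Mono were CD45+ CD11b+ Ly6C-high Ly6G- CD11c- cells. Cells of 18 mice from 3 experiments were combined for each spinal cord population, and cells of 13 mice from 2 experiments for BM-Mono. Each population was therefore 1 pooled library, so that no difference has a replicate check, and every interval covers counting error only. One label of the SC-APC library gives bone marrow as its source, whereas its title and tissue label give spinal cord, and it was treated as spinal cord.

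The libraries held 33280643 (BM-Mono), 27283795 (SC-Mono) and 28209589 (SC-APC) estimated reads. Levels are in TPM (reads per length of transcript, as a share of the library), rescaled here to a sum of 1000000 over the common genes, and a gene over 3 is called active. A gene behind the Ly6C gate followed it, with a TPM of Ly6c2 of 5205 in BM-Mono, 3602 in SC-Mono and 1067 in SC-APC, and Ly6g stayed under 3 in each library.

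Microglia arise from yolk sac precursors, seed the CNS before birth and renew themselves there, whereas monocytes are made in the bone marrow throughout life. Signalling through CSF1R keeps microglia alive, and TGF-beta together with transcription factors such as Sall1 maintains the set of genes by which they are told from other macrophages. By role, the 9 genes encode a surface protein of unclear function (Tmem119), receptors and lectins (P2ry12, Gpr34, Siglech, Fcrls), secreted proteins of the extracellular space (Sparc, Olfml3) and transcription factors (Sall1, Bhlhe41). Several are also known outside microglia. P2ry12 and Sparc are found in platelets and their precursors, Siglech in plasmacytoid dendritic cells, and Sparc in endothelial cells, fibroblasts and astrocytes.

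Because the 9 genes moved together between the libraries, the DNA upstream of their start sites was read. RefSeq windows of 300 bases, 250 before and 50 after the start (GRCm38.p6), were found for 7 of the 9 genes, and not for Tmem119 and Gpr34. The E-box CACGTG, a palindrome that basic helix-loop-helix factors such as Bhlhe41 bind, was in the windows of 3 genes (P2ry12, Siglech and Bhlhe41 itself) and in 7.15% of all 32851 windows. The letters AGGAAG, or CTTCCT on the other strand, which hold the core bound by ETS factors such as PU.1, were in windows of 4 genes (P2ry12, Sall1, Olfml3 and Fcrls) and in 35.4% of all windows. These motifs do not overlap each other in letters. They were chosen after the sequences had been read, so that the counts are a description. A match does not show that a factor binds there. For the genes with an E-box, the lines below show the part of the window upstream of both the RefSeq start and the GENCODE model. It is given 5′ to 3′ on the strand of the gene, with motifs in capitals. A 30-base stretch of Fcrls is added because its window held the ETS letters at 4 places.
P2ry12, chr3:59262986-59263235, minus strand: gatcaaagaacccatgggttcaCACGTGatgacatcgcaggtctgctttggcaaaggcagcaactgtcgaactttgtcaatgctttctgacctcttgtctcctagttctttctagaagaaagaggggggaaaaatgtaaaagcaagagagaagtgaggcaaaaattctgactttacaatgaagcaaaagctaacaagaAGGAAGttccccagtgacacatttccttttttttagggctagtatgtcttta
Siglech, chr7:55767934-55768177, plus strand: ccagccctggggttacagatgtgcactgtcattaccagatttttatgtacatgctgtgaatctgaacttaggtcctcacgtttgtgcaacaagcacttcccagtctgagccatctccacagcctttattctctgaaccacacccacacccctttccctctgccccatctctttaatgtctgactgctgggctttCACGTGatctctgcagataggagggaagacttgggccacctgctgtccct
Bhlhe41, chr6:145865559-145865670, minus strand: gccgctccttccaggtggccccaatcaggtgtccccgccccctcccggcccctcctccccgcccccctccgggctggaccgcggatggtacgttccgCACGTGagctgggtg
Fcrls, chr3:87263718-87263747, minus strand: cttatctataaaAGGAAGgcgtcctacgca

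In P2ry12 the E-box began 228 bases and the ETS letters 52 bases before the RefSeq start. In Siglech the E-box lay closer, at 56 bases, and in Bhlhe41 at 153 bases. The 4 ETS matches of Fcrls began 211, 194, 143 and 74 bases before its RefSeq start. The GENCODE model of Fcrls starts farther upstream, so that these matches, and most of the stretch shown, lie inside that model.

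Transcripts of all 9 genes were active in both spinal cord libraries, and those of P2ry12 alone were active in BM-Mono. Summed over the 9 genes, TPM was 14.0 in BM-Mono, 168 in SC-Mono and 454 in SC-APC, a ratio of 11.99 from BM-Mono to SC-Mono and of 2.70 from SC-Mono to SC-APC. For each of the 9 genes the order was BM-Mono, SC-Mono, SC-APC from low to high, and the 95% Wilson intervals of the 3 libraries did not overlap. In bulk RNA, more cells with a transcript and more of it per cell cannot be told apart. RNA of microglia admixed to the sorted cells and expression in monocyte-derived APCs themselves cannot be separated in these libraries. The gate on high CD45 was meant to leave out microglia, which carry less of it, and how many passed it was not measured here.

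**Figure D1:**
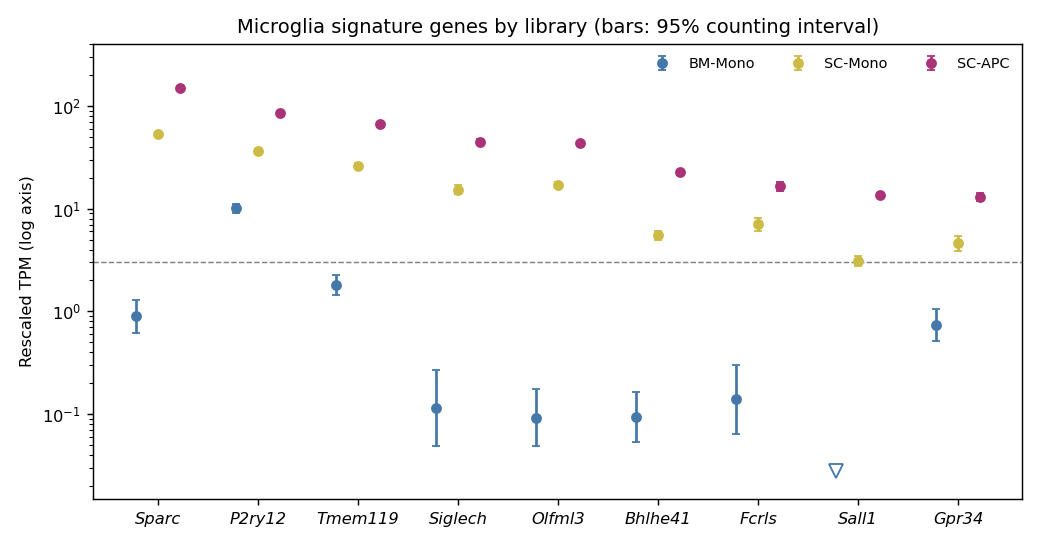
Rescaled TPM (log axis) of the 9 genes in the 3 pooled libraries, 1 point per library, with 95% Wilson intervals that cover counting error only. The dashed line marks a TPM of 3, and the open triangle marks Sall1, with 0 reads in BM-Mono, at the TPM of 3 reads. The SC-APC point is the highest for each gene, and P2ry12 is the one gene above the line in BM-Mono.

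Differences were taken from the reads as a log2 ratio of 2 libraries with a 98% interval, and a gene was called where the interval lay beyond a 2-fold change and the gene was active in at least 1 of the 2. From BM-Mono to SC-Mono, 9 of 9 genes were called higher, against 13.6% of 10072 active genes. All but P2ry12 were active only in the spinal cord library, where they were high, and could hardly have been called lower. The share over all active genes also holds genes active in BM-Mono, so that this count is a description. From SC-Mono to SC-APC, 8 of 9 were called higher and none lower, against 1.94% of 9734 active genes called higher and 1.66% called lower. These calls rest on counting error, and with an assumed coefficient of variation between libraries of 0.2 the count was 1 of 9 (Sall1), and with 0.4 it was 0 of 9. From BM-Mono to SC-APC, 9 of 9 were called higher, against 14% of 10190 active genes, with the same limit. The median log2 ratio of the 9 genes was 5.48 from BM-Mono to SC-Mono, and remains 5.48 with Sall1 at its lower bound, while that of all active genes was -0.17. From SC-Mono to SC-APC these medians were 1.45 and -0.03. The comparisons share libraries and are not independent of each other.

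**Figure D2:**
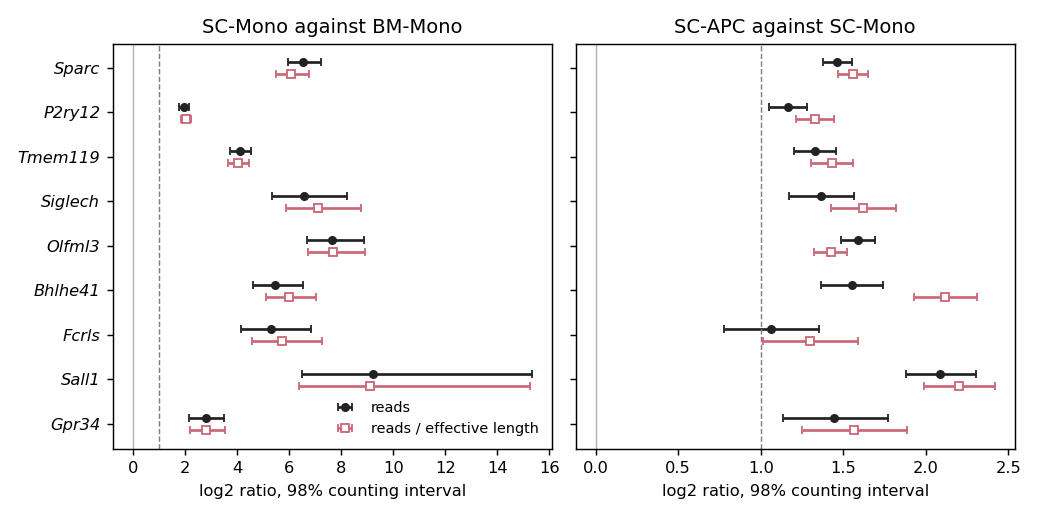
Log2 ratio of each gene from BM-Mono to SC-Mono (left) and from SC-Mono to SC-APC (right), with 98% intervals of counting error, on reads (filled) and on reads per base of effective length (open). The dashed line marks a 2-fold change. On reads the interval of Fcrls crosses it in the right panel, and the value of Sall1 in the left panel depends on the read added to its count of 0.

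Of the surface proteins and receptors, P2ry12, a receptor for ADP that guides microglial processes to sites of injury, was the most abundant in the spinal cord. Its gene lies at chr3:59216272-59262871 on the minus strand (GRCm38), inside Med12l on the opposite strand. P2ry12 TPM was 10.1 in BM-Mono (417 reads, 95% interval 9.17 to 11.1), 36.0 in SC-Mono (1179 reads, 34.0 to 38.1) and 85.6 in SC-APC (2923 reads, 82.6 to 88.8). It had the highest level of the 9 in BM-Mono and the smallest fold there, 3.88 from BM-Mono to SC-Mono (98% interval 3.41 to 4.44). The log2 ratio from SC-Mono to SC-APC was 1.16 (1.05 to 1.28), just past the 2-fold line. Med12l, whose reads could not be assigned to a strand from the sources used here, had a TPM of 0.0740, 1.02 and 1.25 in the same order. Platelets also carry P2ry12, and the 11 platelet and megakaryocyte genes listed summed to a TPM of 49.8 in BM-Mono, 9.21 in SC-Mono and 17.0 in SC-APC, with 3, 1 and 1 of them active. Gp1ba and Gp1bb, subunits of the platelet receptor for von Willebrand factor, had 0 reads in both spinal cord libraries. Pf4, the one gene of the list active there, had a TPM of 6.83 in SC-Mono and 14.1 in SC-APC. The sum was thus lower in SC-Mono than in BM-Mono while P2ry12 was higher, and from SC-Mono to SC-APC both were higher. Most of the rise of the sum at that second step was Pf4. Pf4 is also counted below among the markers of macrophages at the borders of the CNS, so that its rise need not be platelet RNA. The part of platelet RNA in the P2ry12 levels was not tested.

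Tmem119, a membrane protein widely used to tell microglia from infiltrating cells, lies at chr5:113793729-113800516 on the minus strand. Its TPM was 1.82 in BM-Mono (77 reads, 1.45 to 2.27), 26.0 in SC-Mono (973 reads, 24.4 to 27.7) and 66.4 in SC-APC (2704 reads, 63.9 to 68.9). The level in SC-APC was the third highest of the 9. Tmem119 was 17.2-fold higher in SC-Mono than in BM-Mono (98% interval 13.2 to 22.9), and its log2 ratio from SC-Mono to SC-APC was 1.33 (1.20 to 1.45).

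Siglech encodes a sialic acid-binding lectin that signals through the adaptor Tyrobp, and lies at chr7:55768178-55778925 on the plus strand. Its TPM was 0.115 in BM-Mono (5 reads, 0.0491 to 0.269), 15.2 in SC-Mono (387 reads, 13.8 to 16.8) and 44.4 in SC-APC (1107 reads, 41.9 to 47.1). Against BM-Mono it was 94.0-fold higher in SC-Mono, with a wide 98% interval of 40.3 to 300.1 that the 5 reads set. The log2 ratio from SC-Mono to SC-APC was 1.37 (1.17 to 1.57). Of 10 genes listed for plasmacytoid dendritic cells, which also carry Siglech, 4 were active in each spinal cord library, and the list summed to a TPM of 60.0 in BM-Mono, 203 in SC-Mono and 215 in SC-APC. Most of the SC-APC sum was Lair1, an inhibitory receptor of many leukocytes, at 155. Klk1 had 0 reads in all 3 libraries, Cox6a2 alone was called higher in SC-APC (log2 ratio 1.90, 1.23 to 2.65), and the part of such cells in the Siglech level was not tested.

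Gpr34, a receptor for lysophosphatidylserine, lies at chrX:13632089-13640858 on the plus strand, inside Cask on the opposite strand. Its TPM was 0.742 in BM-Mono (29 reads, 0.517 to 1.07), 4.59 in SC-Mono (149 reads, 3.91 to 5.39) and 12.9 in SC-APC (451 reads, 11.7 to 14.1), the lowest of the 9 in SC-APC. Cask moved the other way, from a TPM of 58.1 in BM-Mono to 13.6 in SC-Mono and 9.73 in SC-APC. Gpr34 was 6.94-fold higher in SC-Mono than in BM-Mono (4.44 to 11.4), and its log2 ratio from SC-Mono to SC-APC was 1.45 (1.14 to 1.77).

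Fcrls, an Fc receptor-like scavenger receptor, lies at chr3:87250758-87263738 on the minus strand. Its TPM was 0.139 in BM-Mono (6 reads, 0.0639 to 0.304), 7.04 in SC-Mono (193 reads, 6.11 to 8.10) and 16.4 in SC-APC (447 reads, 15.0 to 18.03). Fcrls was 39.9-fold higher in SC-Mono than in BM-Mono (17.9 to 116). It was the one member not called from SC-Mono to SC-APC, where its log2 ratio was 1.06 with an interval of 0.78 to 1.35. Divided by effective length the ratio was 1.30 (1.01 to 1.59), and the gene was called.

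The secreted proteins were led by Sparc, a collagen-binding glycoprotein of the matrix, at chr11:55394500-55423183 on the minus strand. Its TPM was 0.901 in BM-Mono (28 reads, 0.623 to 1.30), 53.2 in SC-Mono (1931 reads, 50.8 to 55.6) and 148 in SC-APC (5895 reads, 145 to 152), the highest of the 9 in both spinal cord libraries. Among all 22238 genes Sparc ranked 2464 by TPM in SC-Mono and 846 in SC-APC. It was 92.7-fold higher in SC-Mono than in BM-Mono (61.6 to 148), and its log2 ratio from SC-Mono to SC-APC was 1.46 (1.37 to 1.55). Endothelial cells, fibroblasts and astrocytes also make Sparc. The 10 endothelial genes listed summed to a TPM of 85.6 in BM-Mono, 168 in SC-Mono and 90.4 in SC-APC, higher in SC-Mono than in BM-Mono as Sparc was, and lower in SC-APC than in SC-Mono. The part of such cells in the Sparc level was not tested. The most abundant endothelial gene, Ly6c1, was also the one called lower (log2 ratio -1.28, -1.49 to -1.06). It was not called when reads were divided by effective length. Ly6c1 encodes Ly6C, on which the populations were sorted. The part of the gate and that of endothelial RNA in its lower level in SC-APC cannot be told apart here. Its TPM was 68.1 in BM-Mono, 76.2 in SC-Mono and 35.4 in SC-APC, a large part of each endothelial sum. Cldn5, of the tight junctions of CNS vessels, had a log2 ratio of -1.05 (-1.41 to -0.70). The 10 fibroblast and pericyte genes summed to 0.766, 17.96 and 14.2 in the same order. Their most abundant, the basement membrane collagen Col4a1, had a TPM of 7.76 in SC-APC. The 8 astrocyte genes summed to 6.73, 41.0 and 63.3, higher at both steps as Sparc was. Most of the rise from SC-Mono to SC-APC was Aldoc alone, whose TPM went from 22.4 to 43.7. From SC-Mono to SC-APC 3 of the 5 active astrocyte genes had a positive log2 ratio, and Gfap and Gja1 had a negative one. The part of astrocytes in the Sparc level was not tested either.

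Olfml3, a secreted glycoprotein with an olfactomedin domain, lies at chr3:103722222-103738001 on the minus strand. Its TPM was 0.0923 in BM-Mono (9 reads, 0.0486 to 0.176), 17.1 in SC-Mono (1415 reads, 16.3 to 18.04) and 43.5 in SC-APC (4714 reads, 42.3 to 44.7). Against BM-Mono it was 201-fold higher in SC-Mono (103 to 472). That was the largest fold of the 8 genes with reads in BM-Mono. The log2 ratio from SC-Mono to SC-APC was 1.59 (1.49 to 1.69).

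Of the transcription factors, Sall1, a zinc finger protein needed for microglial identity, lies at chr8:89027235-89044162 on the minus strand and has 1 annotated transcript of 5265 bases. It had 0 reads in BM-Mono, which allows a TPM of up to 0.0280 (3 reads). In SC-Mono its TPM was 3.10 (300 reads, 2.77 to 3.47), the lowest of the 9 and just over the limit for an active gene, and in SC-APC it was 13.5 (1415 reads, 12.8 to 14.3). Against that floor its TPM was at least 110.6-fold higher in SC-Mono and at least 482.5-fold higher in SC-APC than in BM-Mono. From SC-Mono to SC-APC it had the largest difference of the 9 genes on reads, with a log2 ratio of 2.09 (1.88 to 2.30), and 99.1% of active genes had a ratio at or below it.

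Bhlhe41, a repressor that binds the E-box, lies at chr6:145858243-145865558 on the minus strand and overlaps Gm43909, a predicted gene on the other strand that is not among the genes compared. Its TPM was 0.0945 in BM-Mono (12 reads, 0.0541 to 0.165), 5.49 in SC-Mono (410 reads, 4.99 to 6.05) and 22.5 in SC-APC (1332 reads, 21.4 to 23.8). Bhlhe41 was 44.6-fold higher in SC-Mono than in BM-Mono (24.4 to 93.3). Its log2 ratio from SC-Mono to SC-APC was 1.55 (1.36 to 1.74) on reads and 2.12 (1.93 to 2.31) once each count was divided by its effective length.

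That difference follows the effective length, the mean length of the transcripts to which reads were assigned less the part where no fragment can start. For Bhlhe41 it was 5875 bases in BM-Mono, 3856 in SC-Mono and 2834 in SC-APC, for models between 690 and 6133 bases. For Olfml3 it was 4263 bases in SC-Mono and 5200 in SC-APC, and the log2 ratio on length was 1.42, lower than on reads. For Siglech it was 1311 and 1196 bases, and its ratio on length was 1.62. Sall1, with a single model, differed by little in length (4989 and 5015 bases). The SC-APC library was quantified on another set of transcripts than the monocyte libraries, so that a change in transcripts used and a change in the models offered cannot be told apart. Across all active genes 8.63% differed in effective length by over 1.5-fold between SC-Mono and SC-APC, against 4.14% between BM-Mono and SC-Mono, which share a transcript set. Divided by length, 9 of 9 genes were called higher from SC-Mono to SC-APC, against 2.38% of active genes called higher and 3.33% called lower, and their ratios lay between 1.30 (Fcrls) and 2.20 (Sall1).

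**Figure D3:**
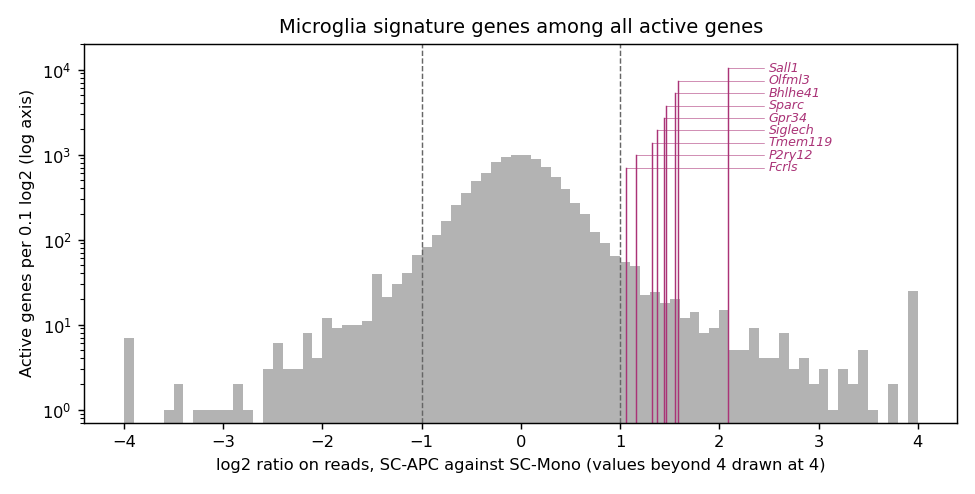
Histogram of the log2 ratio on reads from SC-Mono to SC-APC for the 9734 active genes (bins of 0.1, log axis of counts), with the 9 microglia signature genes as vertical lines. Dashed lines mark a 2-fold change. The 9 lines lie between 1.06 (Fcrls) and 2.09 (Sall1), whereas the median of all active genes is -0.03.

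The make-up of the list was then compared between the libraries. In SC-Mono, Sparc gave 31.7% of the summed TPM of the 9 genes, P2ry12 21.5%, Tmem119 15.5% and Olfml3 10.2%. In SC-APC the same genes gave 32.7%, 18.9%, 14.6% and 9.59%. Siglech gave 9.08% and 9.79%, Fcrls 4.19% and 3.62%, Bhlhe41 3.27% and 4.97%, Gpr34 2.74% and 2.84%, and Sall1 1.85% and 2.98%. The largest difference in share between the spinal cord libraries was 2.59 percentage points, for P2ry12. The ratio of TPM from SC-Mono to SC-APC ran from 2.33 (Fcrls) to 4.36 (Sall1) with a median of 2.79. On TPM the transcription factors had the highest ratios, with 4.11 for Bhlhe41. On reads the log2 ratio of Bhlhe41 (1.55) was below that of Olfml3 (1.59). The TPM ratio and share of Bhlhe41 thus depend on its effective length, which differed between these libraries. BM-Mono differed in make-up, with 72.1% of its summed TPM from P2ry12, 12.98% from Tmem119 and 6.44% from Sparc.

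**Figure D4:**
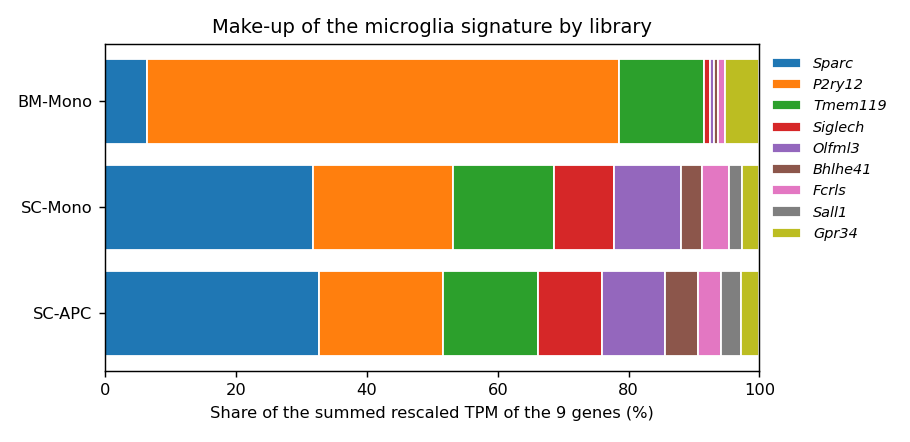
Share of each gene in the summed rescaled TPM of the 9 microglia signature genes (percent), in 1 bar per library. The bars of SC-Mono and SC-APC are alike within 2.59 percentage points for each gene, whereas P2ry12 takes 72.1% of the BM-Mono bar.

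Ordered by level, Sparc, P2ry12 and Tmem119 led in both spinal cord libraries, with intervals that did not overlap. Siglech and Olfml3 followed, and their intervals overlapped in each. Sall1 and Gpr34 overlapped in SC-APC, whereas in SC-Mono Gpr34 overlapped with Bhlhe41 and lay above Sall1. In BM-Mono, where P2ry12 and Tmem119 stood apart, the intervals of Sparc and Gpr34 overlapped, as did those of Fcrls, Siglech, Bhlhe41 and Olfml3.

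A further list of 25 genes enriched in microglia had a lower median ratio. In SC-APC 23 of them were active, 6 were called higher than in SC-Mono and none lower, with a median log2 ratio of 0.76 against 1.45 for the 9 genes. The largest ratio was that of Sall3, a relative of Sall1, with 2.42 (2.02 to 2.84) and a TPM of 0.75 in SC-Mono and 3.22 in SC-APC. Lag3, an inhibitory receptor, had a ratio of 1.77 (1.52 to 2.02) and Adgrg1, an adhesion receptor, 1.55 (1.33 to 1.78). Selplg, the ligand of P-selectin and the most abundant of the list at a TPM of 322 in SC-APC, was not called (0.86, 0.80 to 0.91). Cx3cr1, the fractalkine receptor of microglia and of monocytes with low Ly6C, was chosen after its values were seen. Its TPM of 88.5 in BM-Mono was above that of 40.4 in SC-Mono, and in SC-APC it was 108, with a log2 ratio of 1.29 (1.22 to 1.37) from SC-Mono. Unlike the 9 genes it was thus higher in BM-Mono than in SC-Mono, by a difference that was not called. From BM-Mono to SC-Mono 13 of the 20 active genes of the list were called higher and 1, Vsir, lower.

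**Figure D5:**
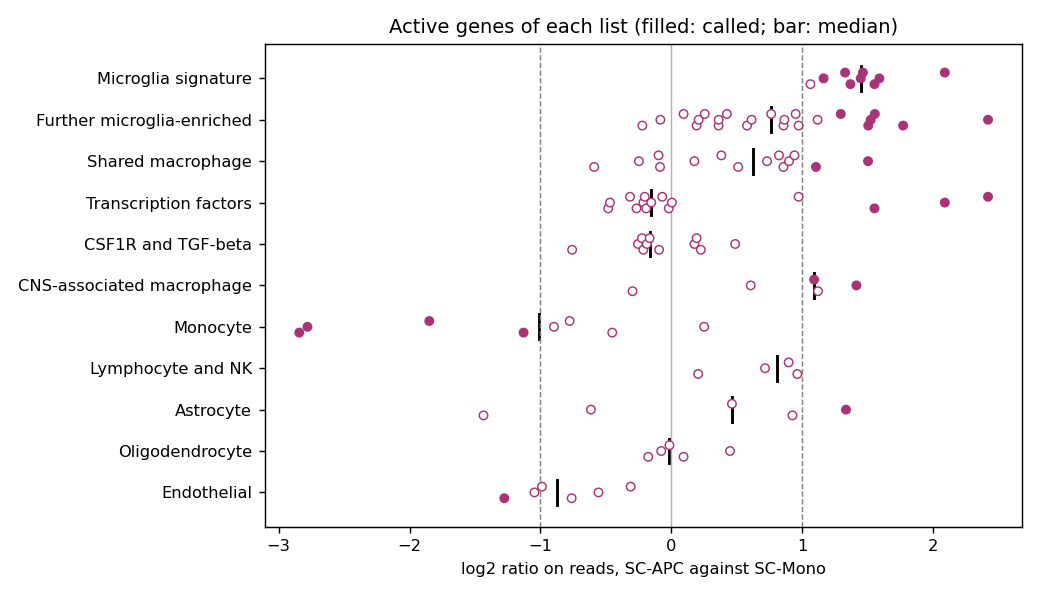
Log2 ratio on reads from SC-Mono to SC-APC of the active genes of 11 of the gene lists, 1 circle per gene, filled where called, with a bar at the median of the list. The microglia signature has its median at 1.45, the further microglia-enriched genes at 0.76 and the monocyte genes at -1.01, and dashed lines mark a 2-fold change.

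Factors and signals on which the list depends in microglia were read next. Of 15 transcription factors listed, all active in SC-APC, 3 were called higher than in SC-Mono, namely Sall1, Sall3 and Bhlhe41, and the list had a median log2 ratio of -0.15. Divided by effective length, 4 were called higher, with Mef2c added, and the median was 0.07. Bhlhe40, the close relative of Bhlhe41, was far more abundant at a TPM of 557 in SC-Mono and 484 in SC-APC, and its ratio was -0.07 (-0.10 to -0.04). Of 13 genes of CSF1R and TGF-beta signalling, 11 were active and 0 were called in either direction, with a median of -0.17 on reads and 0.11 by length. Csf1r itself had a TPM of 676 in SC-Mono and 1134 in SC-APC, with a log2 ratio of 0.18 (0.15 to 0.20) on reads and 0.83 on reads divided by length. Nrros, which anchors latent TGF-beta on macrophages, had a ratio of -0.76 (-0.84 to -0.67). Among 24 relatives of the 9 genes, 12 were active in that comparison and Sall3 alone was called. Siglecf, a relative of Siglech, had a ratio of 1.28 (0.95 to 1.62).

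Genes that macrophages of many tissues share were counted beside these. Of 14 such genes 2 were called higher in SC-APC, the complement genes C1qa (log2 ratio 1.50, 1.46 to 1.54) and C1qc (1.10, 1.06 to 1.14), and the median was 0.62. C1qa had a TPM of 0.778 in BM-Mono, 650 in SC-Mono and 1830 in SC-APC. Apoe, a lipid carrier, and Ctss, a lysosomal protease, were the most abundant at 10457 and 10133 in SC-APC, and neither was called. Of 8 monocyte genes 4 were called lower in SC-APC, among them Plac8 (-2.78, -2.83 to -2.73) and Ly6c2 (-1.85, -1.89 to -1.81), the latter a gene of the gate.

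Markers of other cells that a spinal cord sample may hold were counted beside the 9 genes, and their part in the levels of the 9 was not tested. Macrophages at the borders of the CNS share many genes with microglia. Of 9 of their markers 5 were active in both spinal cord libraries, and they summed to a TPM of 25.7 in BM-Mono, 342 in SC-Mono and 641 in SC-APC. Most of both spinal cord sums was the lectin gene Clec4n, at 271 in SC-Mono and 539 in SC-APC. Ms4a7 went from 34.4 to 50.4 and Pf4 from 6.83 to 14.1, whereas Siglec1 went the other way, from 22.1 to 18.3. Cbr2 was active in neither spinal cord library, with 17 reads in SC-Mono and 11 in SC-APC and 95% intervals that overlapped. Mrc1, the mannose receptor, was called higher in SC-APC (1.41, 1.26 to 1.57), as was Clec4n (1.09, 1.03 to 1.15), whereas Cd209f had 0 reads in every library and Lyve1 had 0 reads in SC-APC. Of 8 astrocyte genes, which summed to 6.73, 41.0 and 63.3 in the same order, Slc1a2, a glutamate transporter, was called higher in SC-APC (1.33, 1.02 to 1.65), though not when divided by length (1.16, 0.85 to 1.48). Gja1, an astrocyte gap junction gene, had a ratio of -1.43 (-2.01 to -0.89) and Gfap, the intermediate filament of astrocytes, one of -0.61 (-0.94 to -0.29). The most abundant astrocyte gene was Aldoc at 43.7 in SC-APC, and Gjb6 had 0 reads in every library. The 10 oligodendrocyte genes summed to 103 in BM-Mono, 79.7 in SC-Mono and 77.9 in SC-APC, and none was called from SC-Mono to SC-APC (median -0.01). Sox10, their defining transcription factor, had 4 reads in SC-Mono and 0 in SC-APC. The 8 neuron genes summed to 0.776, 3.78 and 4.84, and none was active in any library.

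Of 6 genes of conventional dendritic cells 2 were called higher in SC-APC, Cd209a (2.84, 2.09 to 3.70) and Itgae (2.30, 1.78 to 2.87), and their sum was 41.1 in BM-Mono, 21.9 in SC-Mono and 32.0 in SC-APC. The 10 lymphocyte and natural killer cell genes summed to 0.610, 37.9 and 57.8, with none called from SC-Mono to SC-APC, and the T cell receptor gene Trac led them at 29.1 in SC-APC. Of 10 granulocyte genes, which summed to 921, 130 and 297, 3 were called higher in SC-APC (Ngp, Ltf and Retnlg) and 2 lower (Elane and Prtn3). Granule gene Ngp had a log2 ratio of 2.69 (2.52 to 2.86), above that of Sall1.

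Outside the lists, genes with profiles like that of the 9 were ranked by the Euclidean distance of their centred log2(TPM + 0.1) profile over the 3 libraries to the median profile of the 9, among 9419 genes active in SC-APC. The nearest 10 were H2-M2, Gal3st4, Cox6a2, P2ry10, Dst, Csf2, Gm10217, Grasp, Atp6v0d2 and Adamts1, at distances of 0.129 to 0.391. Some of these profiles rest on few reads. Gm10217 had 0, 2 and 6 reads from BM-Mono to SC-APC, and Cox6a2 and Csf2 had 27 each in SC-Mono. H2-M2, an MHC class I-like gene, had a TPM of 0, 2.55 and 11.2 from BM-Mono to SC-APC. P2ry10, a receptor for lysophosphatidylserine like Gpr34, had 0.267, 8.91 and 45.4. Among the 9 themselves Bhlhe41 was the nearest to the median, at 0.0696. With a pseudocount of 1 in place of 0.1 the nearest 10 were other genes throughout (0 shared), so that the ranking over 3 libraries depends on how low levels are treated.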

How the data were processed

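RNA of 3 sorted populations was sequenced with 50-base reads, as 1 pooled library each (mRNA kit, 11 cycles of PCR per the labels). The authors quantified transcripts with Salmon 0.14.1 against GENCODE vM22 on mm10, summed them per gene, and deposited TPM values, effective lengths and estimated counts. The monocyte libraries list 54432 genes and the SC-APC library 22242, so the transcript sets differed. The 22238 genes common to all 3 were compared, holding 84.9% (BM-Mono), 85.3% (SC-Mono) and 100.0% (SC-APC) of the deposited TPM. TPM was rescaled to 1000000 over them, and estimated counts were rounded, giving 32115707, 26116588 and 28209327 reads. The members and the gene lists were chosen with earlier results of these data known.

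Levels have 95% Wilson intervals, and a count of 0 is given a floor of 3 reads per library. PCR copies are not independent molecules. Log2 ratios are medians of a gamma posterior of reads plus 1, divided by size factors (median of ratios, from the 2 libraries), with percentiles 1 and 99. A gene was called where these lay beyond a 2-fold change and TPM was over 3 in at least 1 library, after the definition of GFold in the study, which was not run. On simulated libraries 200 of 200 genes changed 4-fold were recovered in each of the 3 comparisons and 0 unchanged genes were called (of 9414 from SC-Mono to SC-APC). The changed genes were drawn from those well over the TPM limit. No change smaller than 4-fold was simulated, whereas from SC-Mono to SC-APC every member but Sall1 differed by less on reads. Recovery of changes near the 2-fold line was thus not tested. The simulated libraries held counting error only, as the calls assume, so that spread between real libraries was not tested. With 1 library per population populations could not be tested, and p-values are left out. Strand-specific counting is not given in the sources used here, so reads of overlapping genes on opposite strands may be shared.

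All 9 members are named, with the annotated genes that overlap them, at most 4 genes of each other list (the most abundant in SC-APC, those with the largest log2 ratio from SC-Mono to SC-APC, and any called gene where 3 or fewer were called), markers with 0 reads, and the 10 genes with the nearest profile. A gene that this rule would name is not reported here. Cx3cr1 and markers outside this rule were chosen after their values were seen. Gene models came from GENCODE M21 (GRCm38), which holds 99.0% of these genes under the identical versioned identifier. The alternatives were total reads or TMM factors, reads divided by effective length, a TPM limit of 4 or none, an assumed coefficient of variation of 0.2 or 0.4, percentiles 0.1 and 99.9, 0.5 reads added, a plain 2-fold change, removal of ribosomal protein, mitochondrially encoded and Gm genes, and log2(TPM + 1) or log2(TPM + 0.1). The software was R 4.3.3 with edgeR 4.0.16 for TMM factors, and Python 3.11.15 with scipy 1.17.1, pandas 2.3.3, numpy 2.4.6 and matplotlib 3.10.9.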

Additional observations from a re-analysis of the deposited data

How the results depend on the processing

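No paired analysis was possible because each population was 1 pooled library, and for the same reason no replicate could be left out. Of the 13 alternatives, the TPM limits, assumed coefficients, percentiles and plain 2-fold change leave the log2 ratio as it is and bear on calls alone. Under the others, which recompute the ratio, none of the 9 genes changed direction. From SC-Mono to SC-APC the 8 calls rested on counting error alone. With an assumed coefficient of variation of 0.2 between libraries 1 remained (Sall1), and with 0.4 there were 0. Fcrls was called when reads were divided by effective length, by a plain 2-fold change, and on log2(TPM + 1) or log2(TPM + 0.1). From BM-Mono to SC-Mono, Sall1 was not called at a TPM limit of 4, P2ry12 with a coefficient of 0.2 or 0.4, and Gpr34 with 0.4. From BM-Mono to SC-APC 9 of 9 genes were called under every alternative. Total reads in place of size factors moved the median of all active genes from -0.17 to -0.33 from BM-Mono to SC-Mono.

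Over all active genes, 1369 were called higher from BM-Mono to SC-Mono, 189 from SC-Mono to SC-APC and 1430 from BM-Mono to SC-APC. Without a TPM limit these counts were 2591, 389 and 2875. With a coefficient of 0.2 the first and second were 896 and 84, and with 0.4 the 3 counts were 619, 42 and 716. From SC-Mono to SC-APC a plain 2-fold change gave 331 and log2(TPM + 0.1) gave 351. The counts of further microglia-enriched genes called higher were 13, 6 and 17. With a coefficient of 0.4 they were 6, 0 and 10, and with 0.2 the second was 1. Before rescaling, the TPM of the 9 genes summed to 11.9 in BM-Mono and 143 in SC-Mono, with the same shares. With a pseudocount of 1, 0 of the 10 genes nearest in profile were shared.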
